A study of Mus musculus with 24 samples.

Results

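The genes described here are 6 insulin-like growth factor (IGF) binding protein genes, Igfbp1, Igfbp2, Igfbp3, Igfbp4, Igfbp6 and Igfbp7, followed by name in hepatocytes of aged mice. They were 6 of the 55421 genes in the count table. They were chosen from measured values, in that differences of these genes between the diet and rapamycin groups were known when the list was drawn up, so their levels and fold changes are given as a description and carry no test. Of the 6 genes, 5 passed the filter on low counts and stood among the 13847 genes tested, and Igfbp6 did not. The passing genes are not all members of the list, and a count over them is not evidence about the family.

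RNA-seq was performed on polyA RNA of hepatocytes that were isolated by 2-step liver perfusion from 24 male C57BL/6J mice. From 4 months of age the animals received a normal diet (ND) with vehicle or with rapamycin at 42 ppm, encapsulated in eudragit (eRapa), an inhibitor of the kinase mTOR. At 18 months they entered a last period of 9 weeks on ND with vehicle (ND+veh, n = 8), on a high-fat diet with 60% of calories from fat and vehicle (HFD+veh, n = 7), or on the same high-fat diet with rapamycin (HFD+eRapa, n = 9). The HFD+eRapa animals had thus received rapamycin before the change of diet, and ND animals with rapamycin were not analysed here. The sample titles name no batch, and all libraries were treated as 1 batch.

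IGF binding proteins are secreted proteins that bind IGF1 and IGF2, lengthen their life in the blood and set how much reaches the IGF1 receptor. Liver is the main source of circulating IGF1, under the control of growth hormone, and hepatocytes secrete several binding proteins. Igfbp1 is a short-lived transcript that insulin represses through FOXO1. Igfbp2 is a hepatocyte transcript of the middle of the lobule. Igfbp3 forms the large complex of the blood with IGF1 and the acid-labile subunit, and in rodent liver it is made mainly by cells other than hepatocytes. Igfbp4 mostly restrains IGF action and is cleaved by the protease PAPP-A, Igfbp6 prefers IGF2, and Igfbp7 binds IGFs weakly and is abundant in endothelium.

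The genes sit in a paired layout on GRCm38. Igfbp1 (chr11:7197782-7202546, forward strand) and Igfbp3 (chr11:7206086-7213923, reverse strand) point towards each other with 3539 bases between them. Igfbp2 (chr1:72824503-72852474, forward strand) faces Igfbp5 (chr1:72857932-72874884, reverse strand) in the same way, with 5457 bases between them. Igfbp4 (chr11:99041244-99054392, forward strand), Igfbp6 (chr15:102144362-102149511, forward strand) and Igfbp7 (chr5:77349240-77408041, reverse strand) lie apart. All are protein-coding genes.

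Promoter sequences were available from RefSeq (GRCm38.p6) for all 6 genes, and the 250 bases before the start site are shown for Igfbp1 and Igfbp2, the pair that was lower by over 2 log2 units in HFD+veh than in ND+veh. Capitals mark matches on either strand to CAAAACA (core of the insulin response element, to which FOXO factors bind), to GTTAAT (HNF1 motif) or to GGGCGG (GC box). None of these motifs overlaps another in the sequences shown.
Igfbp1 (chr11:7197537-7197786, forward strand): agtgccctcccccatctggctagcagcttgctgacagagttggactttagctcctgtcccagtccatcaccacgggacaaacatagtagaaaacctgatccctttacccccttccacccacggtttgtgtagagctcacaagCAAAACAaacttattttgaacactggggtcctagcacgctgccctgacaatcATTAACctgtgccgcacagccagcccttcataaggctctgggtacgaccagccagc
Igfbp2 (chr1:72824230-72824479, forward strand): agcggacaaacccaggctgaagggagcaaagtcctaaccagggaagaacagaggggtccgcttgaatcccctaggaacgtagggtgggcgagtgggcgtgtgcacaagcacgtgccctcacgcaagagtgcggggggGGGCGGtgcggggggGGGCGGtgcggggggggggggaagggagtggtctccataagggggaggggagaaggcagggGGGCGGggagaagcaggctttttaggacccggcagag
The Igfbp1 promoter held CAAAACA from base -108 to -102 and the HNF1 motif, on the reverse strand, from -56 to -51. CAAAACA was present in 5.56% and the HNF1 motif in 6.43% of 32851 mouse promoters of this length. The Igfbp2 promoter held 3 GC boxes and was 67.2% G or C, against 53.2% for Igfbp1 and a median of 52.4% over all promoters. A GC box was present in 32.7% of promoters. Neither sequence held the FOXO site GTAAACA (3.17% of promoters), the STAT5 site TTCNNNGAA (7.02%) or TATAAA (12.4%). A match is a description of the letters and was not tested as a binding site.

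The libraries held 17.7 to 25.9 M counts (M, 1000000). Albumin, Alb, the most typical hepatocyte transcript, stood between 31430 and 127993 counts per M counts (CPM, library sizes scaled by TMM) in every library, which matches the labelled cell type. Markers of other liver cells were also present and differed between groups. The summed level of 12 endothelial markers ran from 117 to 655 CPM in ND+veh, from 164 to 1020 CPM in HFD+veh and from 90.8 to 477 CPM in HFD+eRapa. For 12 stellate cell markers the ranges were 51.4 to 352, 53.8 to 604 and 30.9 to 129 CPM. For 11 macrophage markers they were 45.6 to 1278, 177 to 4713 and 14.6 to 1043 CPM. In HFD+veh, replicates 1 and 2 had the lowest endothelial and stellate sums, and replicates 3, 4 and 6 the highest. In bulk RNA, fewer cells of a type and less RNA per cell cannot be told apart.

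In ND+veh, per length of transcript, Igfbp2 was the highest of the family with 633 ± 154 FPKM (SD, n = 8). Igfbp4 followed with 382 ± 80.1 FPKM and Igfbp1 with 133 ± 120 FPKM. Igfbp7 stood at 63.9 ± 30.4 FPKM, within the spread of Igfbp1. Igfbp3 was at 2.17 ± 1.5 FPKM, and Igfbp6 at 0.0703 ± 0.152 FPKM did not differ beyond its spread from Igfbp5, at 0.0590 ± 0.0362 FPKM.

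That order changed with the groups. In HFD+veh, Igfbp4 was highest with 356 ± 154 FPKM (SD, n = 7), and Igfbp7 with 78.3 ± 51.2 FPKM and Igfbp2 with 75.3 ± 70.3 FPKM were not separated by their spread. In HFD+eRapa, Igfbp4 had 518 ± 108 FPKM (SD, n = 9) and Igfbp2 had 275 ± 88.6 FPKM, with Igfbp1 at 40.5 ± 34.7 FPKM and Igfbp7 at 28.4 ± 10.7 FPKM overlapping each other.

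**Figure D1:**
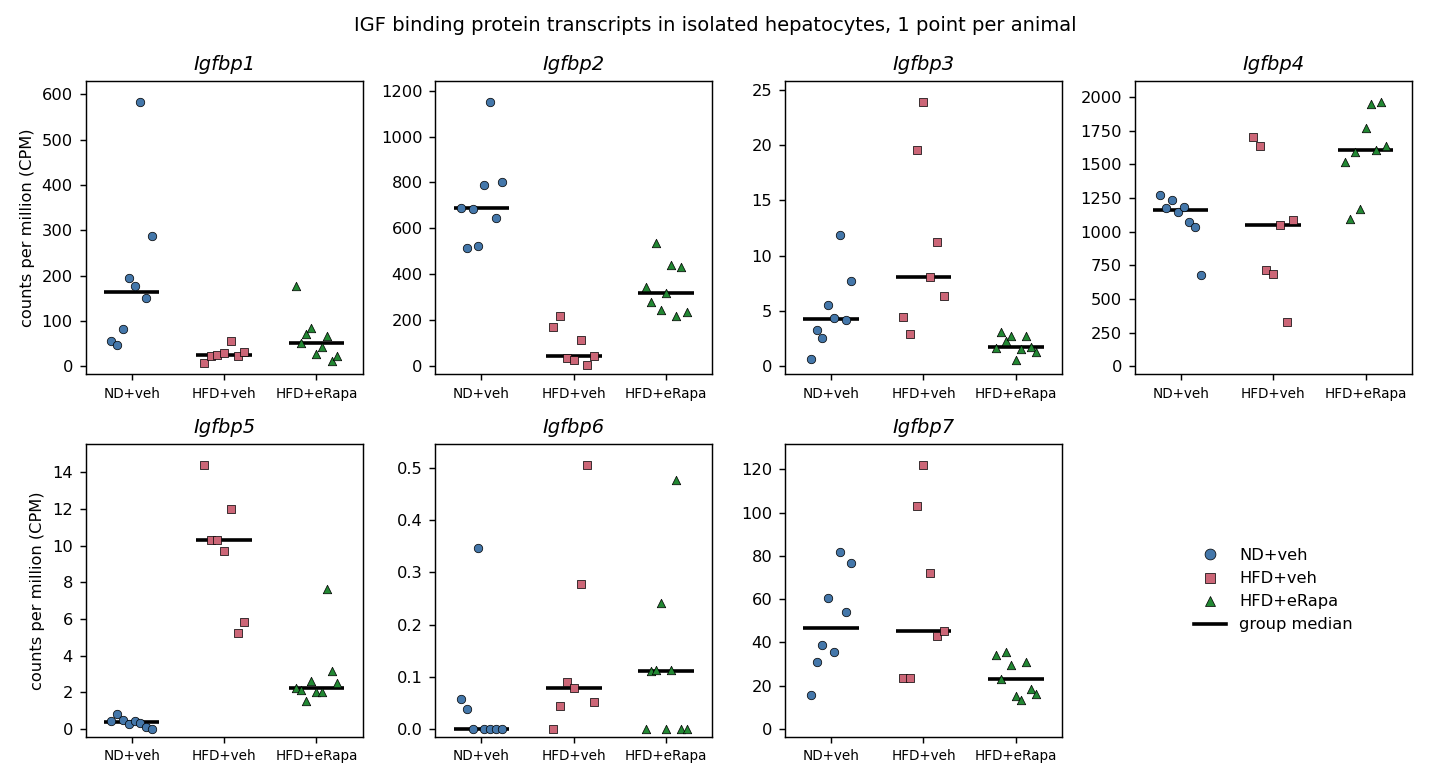
Counts per 1000000 counts (CPM, linear axes from 0) of the 6 listed genes and of Igfbp5 in each animal, by group, with the group median as a line. Igfbp2 of all 7 HFD+veh animals lies below the 8 ND+veh animals, and Igfbp5 of all HFD+veh animals lies above them.

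Igfbp2 spanned the widest range of the 6 genes per length of transcript, from 6.41 to 972 FPKM. In ND+veh it ran from 514 to 1150 CPM with a median of 687 CPM. In HFD+veh it ran from 7.0 to 220 CPM with a median of 42.9 CPM, and in HFD+eRapa from 219 to 538 CPM with a median of 320 CPM. The HFD+veh animals all lay below the ND+veh animals, with replicate 6 lowest and replicates 1 and 2 highest. The HFD+eRapa animals lay between, 8 of 9 above all HFD+veh animals and 8 of 9 below all ND+veh animals. The fitted log2 fold change was -3.03 (SE 0.488) for HFD+veh against ND+veh, 1.94 (SE 0.458) for HFD+eRapa against HFD+veh and -1.09 (SE 0.418) for HFD+eRapa against ND+veh.

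Variation of Igfbp2 between animals was also unequal. The SD of its log2 CPM was 0.37 in ND+veh and 0.45 in HFD+eRapa, near the medians of 0.32 and 0.31 over all genes tested. In HFD+veh it was 1.73, above that of 95.5% of genes, where the median was 0.45. The highest HFD+veh animal had 31.4 times the CPM of the lowest. When single libraries were left out, the HFD+veh against ND+veh log2 fold change of Igfbp2 stayed between -3.44 and -2.84.

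Igfbp1 had lower medians on the high-fat diet, with and without rapamycin, than on ND. It ran from 46.5 to 583 CPM in ND+veh (median 164 CPM), from 7.77 to 56.2 CPM in HFD+veh (median 24.6 CPM) and from 11.7 to 178 CPM in HFD+eRapa (median 50.5 CPM). The highest values of their groups were ND+veh replicate 6, HFD+veh replicate 5 and HFD+eRapa replicate 1, and all groups overlapped. Of the 7 HFD+veh animals, 6 lay below all ND+veh animals. The log2 fold change was -2.84 (SE 0.582) for HFD+veh against ND+veh, 1.16 (SE 0.537) for HFD+eRapa against HFD+veh and -1.68 (SE 0.508) for HFD+eRapa against ND+veh. Without ND+veh replicate 6 the first and the last were -2.37 and -1.20.

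Igfbp4 differed least between ND+veh and HFD+veh. It ran from 674 to 1269 CPM in ND+veh (median 1159 CPM), from 325 to 1705 CPM in HFD+veh (median 1050 CPM) and from 1095 to 1961 CPM in HFD+eRapa (median 1605 CPM). The HFD+veh animals spanned the ND+veh range, with replicates 1 and 2 high and replicate 6 lowest, 3 of 9 HFD+eRapa animals lay above all HFD+veh animals, and 7 of 9 HFD+eRapa animals lay above all ND+veh animals. The log2 fold change was -0.09 (SE 0.240) for HFD+veh against ND+veh, 0.63 (SE 0.236) for HFD+eRapa against HFD+veh and 0.53 (SE 0.226) for HFD+eRapa against ND+veh.

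Igfbp3 was scarce in these preparations. It ran from 0.624 to 11.9 CPM in ND+veh (median 4.28 CPM), from 2.95 to 23.9 CPM in HFD+veh (median 8.10 CPM) and from 0.564 to 3.13 CPM in HFD+eRapa (median 1.73 CPM). HFD+veh replicates 3 and 4 were highest, and 8 of 9 HFD+eRapa animals lay below all HFD+veh animals. The log2 fold change was 1.12 (SE 0.464), -2.48 (SE 0.466) and -1.35 (SE 0.448) for HFD+veh against ND+veh, HFD+eRapa against HFD+veh and HFD+eRapa against ND+veh.

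Igfbp7 had fold changes of the same signs as Igfbp3. It ran from 15.5 to 81.9 CPM in ND+veh (median 46.4 CPM), from 23.3 to 122 CPM in HFD+veh (median 45.4 CPM) and from 13.5 to 35.6 CPM in HFD+eRapa (median 23.0 CPM). The ND+veh and HFD+veh medians were close, and 5 of 9 HFD+eRapa animals lay below all HFD+veh animals. The log2 fold change was 0.33 (SE 0.362), -1.36 (SE 0.353) and -1.03 (SE 0.343) in the same 3 comparisons.

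Igfbp6 was near the limit of detection. It had 0 to 12 counts per library, and 10 of the 24 libraries held none. Its highest level was 0.506 CPM, in HFD+veh replicate 6, and no fold change is given. In these 10 libraries a count of 0 allowed up to 3 counts, or 0.129 to 0.186 CPM depending on the library, for counting error only.

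With an adjusted p under 0.05 in the fit across all genes as the call, 2 of the 5 genes that passed the filter stood out in HFD+veh against ND+veh, Igfbp1 and Igfbp2, both lower, where 25.9% of all genes tested were called. Between HFD+eRapa and HFD+veh, 4 were called, Igfbp2 and Igfbp4 higher and Igfbp3 and Igfbp7 lower, against 32.0% of all genes. Between HFD+eRapa and ND+veh, 3 were called, Igfbp1, Igfbp3 and Igfbp7, all lower, against 13.5% of all genes. Without ND+veh replicate 6 or 8, or HFD+eRapa replicate 5 or 6, this last count was 0, against 10.6, 12.9, 11.9 and 11.8% of all genes. Groups that did not overlap were found for 1 of the 5 genes between HFD+veh and ND+veh, Igfbp2, against 2.44% of all genes tested. For HFD+eRapa against HFD+veh and against ND+veh they were found for none of the 5, against 2.59% and 3.37% of all genes. Since the genes were chosen with these contrasts known, nothing is read from these counts. The 3 comparisons share their groups in pairs.

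**Figure D2:**
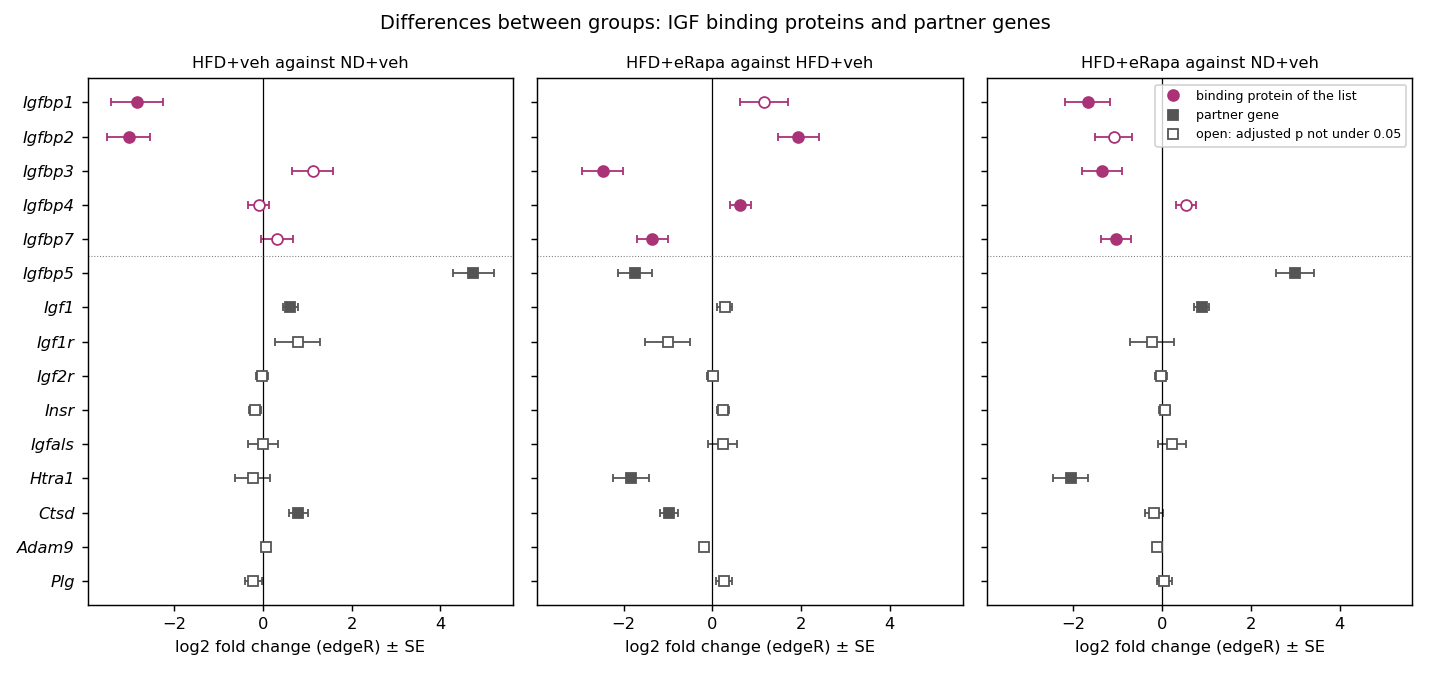
Log2 fold change from edgeR (horizontal axis, bars are 1 SE) of 5 listed binding protein genes (circles) and 10 partner genes (squares) in the 3 comparisons, filled where the adjusted p was under 0.05. Igfbp2 and Igfbp5, which neighbour each other, stand at -3.03 and 4.74 in HFD+veh against ND+veh.

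The makeup of the family was compared on FPKM, as each gene's share of the summed FPKM of the 7 Igfbp genes from Igfbp1 to Igfbp7. The sum was 1214 ± 286 FPKM in ND+veh (SD, n = 8), 534 ± 195 FPKM in HFD+veh (SD, n = 7) and 863 ± 174 FPKM in HFD+eRapa (SD, n = 9). Igfbp2 made up 52.2 ± 4.23% of it in ND+veh, 11.8 ± 8.03% in HFD+veh and 31.5 ± 5.32% in HFD+eRapa. Igfbp4 made up 32.6 ± 8.85%, 65.4 ± 8.52% and 60.1 ± 6.37%. Thus, per length of transcript, Igfbp2 outweighed Igfbp4 in each ND+veh animal, and Igfbp4 outweighed Igfbp2 in each animal on the high-fat diet. In CPM, which are not scaled by length, Igfbp4 had the higher ND+veh mean, 1098.5 against 724 CPM.

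The ratio of Igfbp2 to Igfbp4 FPKM within an animal ran from 1.11 to 3.06 in ND+veh, from 0.0510 to 0.342 in HFD+veh and from 0.368 to 0.851 in HFD+eRapa. These ranges did not overlap, though HFD+veh and HFD+eRapa came close, at 0.342 and 0.368. Both genes were chosen with the group differences known, and how often other gene pairs separate in this way was not tested. Igfbp1 took 9.86 ± 6.40% of the sum in ND+veh, 3.99 ± 2.31% in HFD+veh and 4.77 ± 3.68% in HFD+eRapa. Igfbp7 took 5.17 ± 2.03%, 17.4 ± 11.9% and 3.40 ± 1.35%, with 28.7, 32.1 and 26.9% in HFD+veh replicates 3, 4 and 6. Igfbp3 took 1.14 ± 0.966% in HFD+veh and under 0.2% on average in both other groups.

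**Figure D3:**
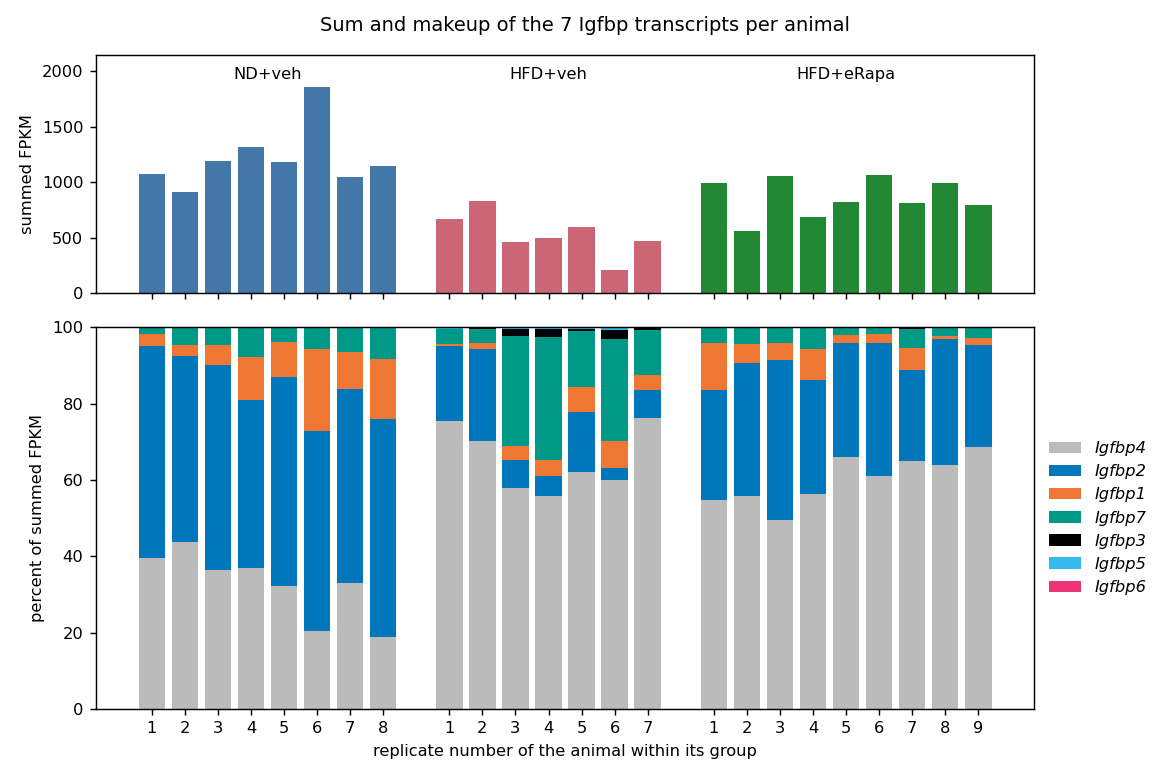
Summed FPKM of Igfbp1 to Igfbp7 in each animal (upper bars) and the percent of that sum from each gene (lower stacked bars), by group and replicate number. Igfbp2 (blue) takes 52.2% on average in ND+veh, 11.8% in HFD+veh and 31.5% in HFD+eRapa.

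Igfbp5 neighbours Igfbp2 and is not among the listed genes, but it belongs to the list of ligands, receptors and complex partners described below. That list was also chosen with earlier results of these data known. The p-values of Igfbp5 are therefore given as a description and are not an independent test. Igfbp5 encodes a binding protein that attaches to extracellular matrix, and it was scarce here, under 2 FPKM in every library. It had 0 to 21 counts per library in ND+veh, near the limit of detection, and 112 to 276 in HFD+veh. It thus passed the filter on low counts through the groups on the high-fat diet. Its fold changes and p-values against ND+veh rest on that floor. It ran from 0 to 0.801 CPM in ND+veh (median 0.374 CPM), from 5.23 to 14.4 CPM in HFD+veh (median 10.3 CPM) and from 1.53 to 7.63 CPM in HFD+eRapa (median 2.23 CPM). All animals on the high-fat diet lay above all ND+veh animals, and HFD+eRapa replicate 7 stood above the other animals of its group. On the log2 scale Igfbp5 rose by 4.74 in HFD+veh against ND+veh (SE 0.465, edgeR adjusted p = 8.01e-07), and this call was kept in 24 of 24 fits with 1 library left out. It fell by 1.75 on the log2 scale in HFD+eRapa against HFD+veh (SE 0.386, adjusted p = 0.00222) and remained above ND+veh by 2.99 (SE 0.432, adjusted p = 4.68e-05). The neighbours Igfbp2 and Igfbp5 thus had log2 fold changes of opposite sign between HFD+veh and ND+veh, as had the neighbours Igfbp1 and Igfbp3, with -2.84 and 1.12.

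Genes around the binding proteins were given by 2 lists, 8 ligands, receptors and complex partners and 9 proteases and their inhibitors. Of these 17 partner genes 10 were tested. Called higher in HFD+veh against ND+veh were 3 of 10, with none lower, where 25.9% of all genes were called. In HFD+eRapa against HFD+veh 3 of 10 were lower and none higher, near the 32.0% of all genes called, and in HFD+eRapa against ND+veh 2 were higher and 1 lower, where 13.5% of all genes were called.

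Igf1, the ligand that liver releases into the blood, was at 377 ± 92.9 CPM in the 8 ND+veh animals, at 579 ± 139 CPM in the 7 HFD+veh animals and at 700 ± 136 CPM in the 9 HFD+eRapa animals (SD). It rose by 0.62 (log2, SE 0.174, edgeR adjusted p = 0.0142) in HFD+veh against ND+veh and by 0.89 (SE 0.166, adjusted p = 0.000632) in HFD+eRapa against ND+veh. The first call was lost without HFD+veh replicate 6, where the difference was 0.54 (adjusted p = 0.0510), and with limma on log2(FPKM + 1), where it was 0.29. HFD+eRapa and HFD+veh differed by 0.27 (SE 0.170, adjusted p = 0.226), within the spread of the animals. Igf2, a ligand that adult rodent liver hardly makes, had 0 to 23 counts per library and was not tested.

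By edgeR and by DESeq2, 0 of 4 genes for the receptors and the acid-labile subunit were called in any comparison, and 0 had an unadjusted p under 0.05. With a covariate for endothelial and stellate markers, Igf1r and Igfals were called in HFD+eRapa against ND+veh and changed sign, to 0.88 and -0.49. Igf1r, the IGF1 receptor, was under 4 CPM in each library, with a log2 fold change of 0.78 (SE 0.514), -1.01 (SE 0.501) and -0.23 (SE 0.491) in the 3 comparisons. Igf2r, which takes up IGF2 for degradation, had mean levels of 49.9, 49.1 and 49.2 CPM in ND+veh, HFD+veh and HFD+eRapa, and Insr, the insulin receptor, had 113, 101 and 118 CPM. Igfals, the acid-labile subunit, had mean levels of 80.8, 80.5 and 94.2 CPM, with the HFD+veh animals spread from 22.3 to 167 CPM. Igfbpl1, an IGFBP-like gene, had no count in any of the 24 libraries.

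Among the proteases, Ctsd, the lysosomal cathepsin D, rose by 0.80 (log2, SE 0.215, edgeR adjusted p = 0.0110) in HFD+veh against ND+veh and fell by 0.97 on the log2 scale (SE 0.208, adjusted p = 0.00176) in HFD+eRapa against HFD+veh. Htra1, a secreted serine protease that cleaves binding proteins, was at 1.53, 1.3 and 0.358 CPM on average in ND+veh, HFD+veh and HFD+eRapa. In HFD+eRapa it fell by 1.83 (log2, SE 0.404, adjusted p = 0.00223) against HFD+veh and fell by 2.06 (SE 0.395, adjusted p = 0.000880) against ND+veh. With the marker covariate the values against HFD+veh were -0.25 for Ctsd (adjusted p = 0.379) and -0.85 for Htra1 (adjusted p = 0.263), neither called. Adam9 and Plg (plasminogen) were not called. Pappa, the gene of PAPP-A, had at most 1 count in a library.

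Igfbp3 and Igfbp7 moved with markers of other liver cells. Between HFD+eRapa and HFD+veh, 11 of 12 endothelial markers were lower (median log2 fold change -1.44), as were 11 of 11 tested stellate markers (median -2.08) and 9 of 11 macrophage markers (median -2.70), against a median of -0.04 over all genes. Of the portal fibroblast and mesothelial list 1 of 2 tested genes was lower, of the lymphocyte list 2 of 2, of the neutrophil list 2 of 3, and of the cholangiocyte list 1 of 4, with 1 higher. Of the hepatocyte markers 1 of 7 was called, Apoa1, higher. The share of all genes called in this comparison was 32.0%.

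Between HFD+veh and ND+veh, 1 of 12 endothelial, 2 of 11 stellate, 4 of 11 macrophage, 2 of 2 portal fibroblast and mesothelial, 2 of 2 lymphocyte, 2 of 3 neutrophil and 3 of 4 cholangiocyte markers were higher and none lower, and 1 of 7 hepatocyte markers, Apoa1, was lower. Between HFD+eRapa and ND+veh, 1 endothelial and 7 stellate markers were lower and 1 cholangiocyte marker was higher, and edgeR called 0 in the other marker lists, where 1 hepatocyte and 1 neutrophil marker had an unadjusted p under 0.05 and DESeq2 called 1, the neutrophil marker S100a8. The shares of all genes called were 25.9% in HFD+veh against ND+veh and 13.5% in HFD+eRapa against ND+veh. The endothelial and stellate counts in the first of these were below that share. Which part of the difference in Igfbp3 and Igfbp7 the cells of these lists make up was not tested.

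Variation between animals within a group was not what the list was chosen on, and it could be tested. For each of the 6 genes and 3 groups, log2 CPM was correlated with an endothelial score, the mean z score of the 12 markers. Of 18 such correlations, 10 had an adjusted p under 0.05 by Pearson's r (two-sided exact permutation). How many of all genes tested follow the score in this way was not tested, so nothing particular to these genes is read from that count.

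Igfbp7 followed the score in each group. In ND+veh Pearson's r was 0.99 (exact permutation p = 0.000124, adjusted 0.00223) and Spearman's rho 0.95 (p = 0.00114, adjusted 0.00787), and r was 0.98 without the 2 most extreme animals. In HFD+veh r was 0.85 (exact permutation p = 0.0212, adjusted 0.0425) and rho 0.64 (p = 0.139, adjusted 0.192), and r was 0.47 without the 2 most extreme animals, so the relation there rested on them. In HFD+eRapa r was 0.87 (exact permutation p = 0.00884, adjusted 0.0227) and rho 0.73 (p = 0.0311, adjusted 0.0509), and r was 0.76 without the extremes.

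For Igfbp3, r was 0.94 in ND+veh (exact permutation p = 0.000769, adjusted 0.00692), 0.90 in HFD+veh (p = 0.00853, adjusted 0.0227) and 0.72 in HFD+eRapa (p = 0.0194, adjusted 0.0425). The corresponding rho was 0.93, 0.86 and 0.80 (exact permutation p = 0.00223, 0.0238 and 0.0138; adjusted 0.00804, 0.0429 and 0.0311). Without the 2 most extreme animals r was 0.88, 0.81 and 0.70.

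Igfbp4 ran the other way. Its r was -0.70 in ND+veh (exact permutation p = 0.0715, adjusted 0.103), -0.87 in HFD+veh (p = 0.00536, adjusted 0.0193) and -0.84 in HFD+eRapa (p = 0.00125, adjusted 0.00751). The corresponding rho was -0.86, -1.0 and -0.92 (exact permutation p = 0.0107, 0.000397 and 0.00131; adjusted 0.0276, 0.00714 and 0.00787). Without the 2 most extreme animals r was -0.67, -0.73 and -0.79. What lies behind this relation was not tested.

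Igfbp1 was higher in ND+veh animals with more endothelial signal, with r of 0.87 (exact permutation p = 0.00523, adjusted 0.0193), rho of 0.93 (p = 0.00223, adjusted 0.00804) and r of 0.95 without the 2 most extreme animals. In HFD+eRapa r was 0.73 (exact permutation p = 0.0237, adjusted 0.0426) and rho 0.68 (p = 0.0503, adjusted 0.0755), with r of 0.81 without the extremes. In HFD+veh r was 0.58 (exact permutation p = 0.187, adjusted 0.225; rho 0.36, p = 0.444, adjusted 0.471), and it turned to -0.46 without the 2 most extreme animals.

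For Igfbp2 in HFD+veh, r was -0.80 (exact permutation p = 0.0312, adjusted 0.0510) and rho -0.93 (p = 0.00675, adjusted 0.0202), with r of -0.52 without the 2 most extreme animals. In ND+veh r was 0.43 (exact permutation p = 0.283, adjusted 0.319; rho 0.48, p = 0.243, adjusted 0.30), and in HFD+eRapa -0.24 (p = 0.529, adjusted 0.560; rho -0.25, p = 0.521, adjusted 0.521). The difference between groups in these correlations was not tested. Igfbp6, at 0 to 12 counts, gave no adjusted p under 0.05 by Pearson's r in the 3 groups, and its rho was 0.86 in HFD+veh (exact permutation p = 0.0238, adjusted 0.0429).

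**Figure D4:**
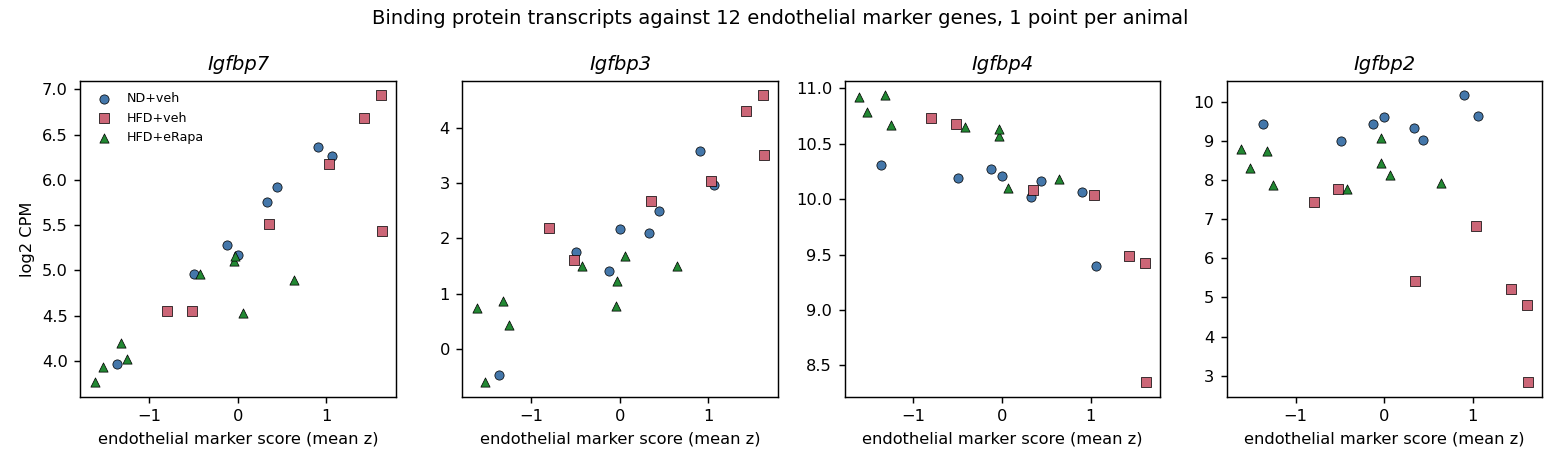
Log2 CPM of Igfbp7, Igfbp3, Igfbp4 and Igfbp2 (vertical axes) against the mean z score of 12 endothelial markers (horizontal axes), 1 point per animal, coloured by group. Igfbp7 and Igfbp3 increase with the score, and Igfbp4 decreases. Igfbp2 of each ND+veh animal lies above that of each HFD+veh animal, but the groups share only part of the range of scores. The ND+veh scores end at 1.06, and HFD+veh replicates 3, 4 and 6 lie beyond, at 1.43, 1.62 and 1.62.

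A fit with the endothelial and stellate score as a covariate called 25.5% of all genes in HFD+veh against ND+veh, 5.46% in HFD+eRapa against HFD+veh and 24.4% in the remaining comparison. For HFD+eRapa against HFD+veh, on the log2 scale, the fold change of Igfbp7 went from -1.36 to -0.02 (SE 0.187) and that of Igfbp3 from -2.48 to -0.82 (SE 0.282). That of Igfbp4 went from 0.63 to 0.10 (SE 0.189), while those of Igfbp1 and Igfbp2 were 2.32 (SE 0.474) and 1.54 (SE 0.455). For HFD+veh against ND+veh, Igfbp2 had -3.19 (SE 0.450) and Igfbp1 -2.88 (SE 0.432) in that fit, close to their values without the covariate. Igfbp3 had 0.69 (SE 0.230) there and became called. DESeq2 without the covariate also called it, at 1.13. For HFD+eRapa against ND+veh, Igfbp1 had -0.55, Igfbp3 -0.13 and Igfbp7 -0.08, and Igfbp2 had -1.65 (SE 0.454). Igfbp5 kept 4.84 (SE 0.419, edgeR adjusted p = 3.55e-08) in HFD+veh against ND+veh and -2.03 (SE 0.399, adjusted p = 0.00251) in HFD+eRapa against HFD+veh.

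The HFD+veh animals with the lowest endothelial sums were also read one by one. Replicates 1 and 2 had endothelial sums of 164 and 207 CPM, inside the ND+veh range. Their Igfbp2 was 172 and 220 CPM, below the lowest ND+veh animal at 514 CPM. Their Igfbp5 was 14.4 and 10.3 CPM, above the highest at 0.801 CPM. Since no HFD+veh animal overlapped ND+veh for either gene, this was given in advance for these replicates and nothing is read from it. Their Igfbp7, at 23.3 and 23.4 CPM, and Igfbp3, at 4.44 and 2.95 CPM, lay inside the ND+veh ranges. What other cells contribute to the levels of these genes was not tested.

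Pathways known to act on these genes were read from lists. Of 7 genes of growth hormone signalling, 1 was higher and 3 were lower in HFD+veh against ND+veh, 4 higher and 1 lower in HFD+eRapa against HFD+veh, and none in HFD+eRapa against ND+veh by edgeR, where 2 had an unadjusted p under 0.05 and DESeq2 called 1. The median log2 fold change of the list was -0.41, 0.59 and -0.11 in these comparisons, against 0.05, -0.04 and -0.03 over all genes tested. The shares of all genes called were 25.9, 32.0 and 13.5%. Socs2, a feedback inhibitor induced by growth hormone, fell by 2.32 on the log2 scale (SE 0.436, edgeR adjusted p = 0.000989) in HFD+veh and rose by 1.86 (SE 0.422, adjusted p = 0.00275) in HFD+eRapa against HFD+veh. Jak2, the kinase of the growth hormone receptor, had 0.46 (SE 0.168, adjusted p = 0.0450) and -0.59 (SE 0.163, adjusted p = 0.00815), the first kept in 9 of 24 fits with 1 library left out. Ghr, the receptor, rose by 0.51 (SE 0.153, adjusted p = 0.0133) in HFD+eRapa against HFD+veh and had -0.11 (SE 0.155, adjusted p = 0.640) in HFD+veh against ND+veh. With the marker covariate the calls of Jak2 and Ghr in HFD+eRapa against HFD+veh were lost, at -0.13 and 0.32.

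Of 9 FOXO and insulin-repressed genes, 3 were called in each comparison, against 25.9, 32.0 and 13.5% of all genes, and 3 of 9 is near the first and second of these shares. Of them 1 was higher and 2 lower in HFD+veh against ND+veh, 1 higher and 2 lower in HFD+eRapa against HFD+veh, and 3 lower in HFD+eRapa against ND+veh, with list medians of 0.01, -0.07 and 0.04. Irs2, an insulin receptor substrate that insulin represses, fell by 2.08 (SE 0.323, adjusted p = 0.000179) in HFD+veh and rose by 1.18 (SE 0.308, adjusted p = 0.00617) with rapamycin. Sesn1, a FOXO target that restrains mTORC1, rose by 0.87 (SE 0.207, adjusted p = 0.00553) in HFD+veh against ND+veh. Ppargc1a, a coactivator of fasting genes, fell by 0.89 (SE 0.226, adjusted p = 0.00525) in HFD+eRapa against HFD+veh, and was not called there with limma on log2(FPKM + 1), at -0.44. Pdk4, which shuts pyruvate out of oxidation in fasting, fell by 1.99 in HFD+veh against ND+veh, where it was called. In HFD+eRapa it fell by 1.58 (SE 0.394, adjusted p = 0.00841) against ND+veh and had 0.41 against HFD+veh, not called.

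Of 9 genes of the ATF4 amino acid response, ATF4 being a known activator of Igfbp1, 4 were lower in HFD+veh against ND+veh. In HFD+eRapa 2 were lower against HFD+veh and 6 lower against ND+veh. Over all genes 25.9, 32.0 and 13.5% were called in these comparisons, and 2 of 9 is below the second of these shares. The list medians were -0.78, 0.10 and -0.87. Fgf21, a hepatokine of the fasting and stress response, fell by 2.5 (SE 0.465, edgeR adjusted p = 0.000910) in HFD+veh and fell by 2.35 (SE 0.422, adjusted p = 0.000514) in HFD+eRapa, each against ND+veh. Psat1, of serine synthesis, fell by 2.00 (SE 0.603, adjusted p = 0.0143) in HFD+eRapa against HFD+veh. Without HFD+veh replicate 6 that value was -0.96, and with the marker covariate it was 0.18, both without a call.

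Zonation markers were read because Igfbp2 marks the middle of the lobule. Of 3 midlobular genes edgeR and DESeq2 called 0 in HFD+veh against ND+veh, and 1 had an unadjusted p under 0.05. The list medians were -0.03, 0.27 and -0.58 in the 3 comparisons, where 25.9, 32.0 and 13.5% of all genes were called. In HFD+eRapa Cyp8b1, the sterol 12-alpha-hydroxylase of bile acid synthesis, rose by 0.81 (SE 0.273, adjusted p = 0.0255) against HFD+veh and by 0.79 (SE 0.261, adjusted p = 0.0463) against ND+veh, calls that were kept in 21 and 7 of 24 fits with 1 library left out. With the marker covariate both were lost, at 0.23 (adjusted p = 0.666) and 0.46 (adjusted p = 0.0984). Hamp2 fell by 5.73 (SE 0.528, adjusted p = 6.30e-07) against HFD+veh and fell by 5.48 (SE 0.519, adjusted p = 3.47e-07) against ND+veh. Since Hamp and Hamp2 are near-identical hepcidin genes, how reads split between them is uncertain.

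Of 9 pericentral genes 5 were lower in HFD+veh against ND+veh, 7 higher in HFD+eRapa against HFD+veh and 0 called in HFD+eRapa against ND+veh by edgeR or DESeq2, with 0 at an unadjusted p under 0.05. Gulo, of vitamin C synthesis, fell by 2.01 (SE 0.318, adjusted p = 0.000218) in the first comparison, and Cyp2e1 rose by 2.04 (SE 0.32, adjusted p = 0.000140) in the second. The list medians were -1.52, 1.22 and 0.14 in the 3 comparisons, where 25.9, 32.0 and 13.5% of all genes were called. Of 7 periportal genes 5 were higher in HFD+veh against ND+veh, 4 lower in HFD+eRapa against HFD+veh and 2 higher in HFD+eRapa against ND+veh, with list medians of 1.3, -0.79 and 0.42. Sds, serine dehydratase, rose by 2.44 (SE 0.461, adjusted p = 0.00103) in HFD+veh against ND+veh and fell by 1.55 (SE 0.433, adjusted p = 0.00907) in HFD+eRapa against HFD+veh. Cyp2f2, a cytochrome P450, rose by 1.61 in HFD+veh against ND+veh, where it was called. In HFD+eRapa it rose by 1.03 (SE 0.255, adjusted p = 0.00771) against ND+veh and had -0.59 against HFD+veh, not called.

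The genes most like each binding protein over all 24 libraries were found by Pearson's r of log2 CPM among 7805 or 7806 candidate genes, as a description that holds group differences and shared libraries. For Igfbp1 they were Pdk4 (r = 0.87), Irf2bp2 (0.85) and Eif2ak3 (0.84), with r of 0.77, 0.82 and 0.69 once group means were removed. For Igfbp2 they were Adck5 (0.92), Fech (0.92) and Notum (0.92), with 0.79, 0.85 and 0.75. Fech completes heme synthesis and Notum inactivates Wnt ligands. For Igfbp4 they were Shmt2 (0.98), of mitochondrial one-carbon metabolism, Reep6 (0.97) and St6galnac6 (0.96), with 0.97, 0.95 and 0.96.

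For Igfbp3 they were Colec11 (0.94), Tspan7 (0.93) and Col14a1 (0.92), with 0.90, 0.88 and 0.90, where Colec11 is 1 of the stellate markers. For Igfbp7 they were Tinagl1 (0.98), Eng (0.97) and Plvap (0.97), with 0.98, 0.96 and 0.96, where Eng is 1 of the endothelial markers and Plvap forms the diaphragms of endothelial openings. Igfbp6 did not pass the filter and was not ranked.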

How the data were processed

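Hepatocyte RNA of 24 mice in 3 groups was analysed. Sample labels gave the group and replicate number of each library. The deposited counts are raw whole numbers. The authors used HTSeq 0.11.2 to count reads per gene after alignment with STAR to mm10 (Gencode annotation) and filtering with SAMtools 1.1.0. Strand use in counting is not given in the sources used here. For the deposited FPKM values the authors ran Cufflinks on these alignments. Total counts ran from 17.7 to 25.9 M (1000000) per library, and the smallest chi-square per degree of freedom between libraries of a group was 12.7, so each was counted as 1 replicate. The labels give no animal identity beyond the replicate number, so p-values measure the spread between these samples.

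Genes were kept by filterByExpr, scaled by TMM and tested with edgeR 4.0.16 (quasi-likelihood F test, all 24 libraries, 3 groups, no covariate), with Benjamini-Hochberg adjustment over 13847 genes. A gene with an adjusted p under 0.05 is termed called. SE is the absolute log2 fold change over the root of F. Log2 CPM used a prior count of 2. The members, the 16 gene lists and the tests were chosen with earlier results of these data known. The text names the members, the IGF ligand and receptor list, Ghr, and from each further pathway list the called gene with the largest rise and fall per comparison, plus the 3 genes most correlated with each member (mean log2 CPM of at least 3). Apoa1, Alb, S100a8, Adam9, Plg and Pappa were named after their values were seen. Correlations used two-sided exact permutation over 18 tests. Gene coordinates are from Gencode on GRCm38, the assembly of mm10, and promoters from RefSeq. Alternatives were DESeq2 1.42.0 or its size factors, other filters, a replicate block, only the groups compared, a marker covariate, limma 3.58.1 on log2(FPKM + 1) and log2(FPKM + 0.1), and each library left out. The fits were tested on simulated data. Counting limits cover counting error only.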

Additional observations from a re-analysis of the deposited data

Results flagged for a closer look

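Igfbp4 of ND+veh replicate 8 stood apart from the other animals of its group, with a log2 CPM of 9.40 against 10.02 for the nearest and 10.31 for the farthest animal. Igfbp5 of HFD+eRapa replicate 7 stood above its group, with a log2 CPM of 2.95 against 1.70 for the next and 0.70 for the lowest animal. A sample was listed here when its gap to the nearest animal, as a share of the range of the group, was past Dixon's 95% critical value. In all, 39 groups of values were examined and 2 were listed, and chance gives about 1 in 20, or 1.95. Without HFD+eRapa replicate 7 the log2 fold change of Igfbp5 was -2.09 against HFD+veh and 2.66 against ND+veh. Without ND+veh replicate 8 that of Igfbp4 in HFD+eRapa against ND+veh was 0.45.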

How the results depend on the processing

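Of the refitted log2 fold changes of members, partner genes and named pathway genes, 2698 kept direction and side of the threshold, 149 were no longer called, 30 became called and 78 changed sign, 43 of them with a library left out. Of the 78, 75 were called neither before nor after. Psat1 in HFD+eRapa against HFD+veh lost its call, and Igf1r and Igfals in HFD+eRapa against ND+veh became called, each with the marker covariate. With the marker covariate the values that turned were Igfbp7 -0.062, Igfals 0.059 and Cyp8b1 0.23 in HFD+veh against ND+veh, Igf1r 0.77, Igf2r -0.060, Insr -0.041, Igfals -0.55, Plg -0.094 and Psat1 0.18 in HFD+eRapa against HFD+veh, Igf1r 0.88, Insr -0.15, Igfals -0.49, Ctsd 0.27, Plg -0.26, Jak2 0.16 and Cyp2e1 -0.14 in HFD+eRapa against ND+veh. With limma on log2(FPKM + 1) the values that turned were Ppargc1a -0.27 and Cyp8b1 0.078 in HFD+veh against ND+veh, Insr -0.015, Plg -0.036 and Sesn1 -0.12 in HFD+eRapa against ND+veh. With limma on log2(FPKM + 0.1) the values that turned were Ppargc1a -0.43 and Cyp8b1 0.080 in HFD+veh against ND+veh, Insr -0.017, Plg -0.036 and Sesn1 -0.15 in HFD+eRapa against ND+veh. With DESeq2 size factors the values that turned were Igfals 0.0033 in HFD+veh against ND+veh, Igf2r -0.0038 in HFD+eRapa against HFD+veh. With DESeq2 the values that turned were Igfals 0.0035 in HFD+veh against ND+veh, Igf2r -0.0038 in HFD+eRapa against HFD+veh. With at least 10 counts in every library the values that turned were Igf2r 0.0087 and Igfals 0.010 in HFD+veh against ND+veh, Igf2r -0.035 in HFD+eRapa against HFD+veh. With the replicate block the values that turned were Igf2r -0.025 in HFD+eRapa against HFD+veh, Gulo 0.082 in HFD+eRapa against ND+veh. With single libraries left out the ranges that crossed 0 were Igfbp4 -0.26 to 0.038, Igf2r -0.095 to 0.028, Igfals -0.29 to 0.14, Adam9 -0.016 to 0.094, Ppargc1a -0.11 to 0.23, Psat1 -1.12 to 0.18, Cyp8b1 -0.17 to 0.20 and Hamp2 -0.16 to 0.59 in HFD+veh against ND+veh, Igf2r -0.071 to 0.067 in HFD+eRapa against HFD+veh, Igf2r -0.096 to 0.043, Plg -0.019 to 0.083, Socs2 -0.59 to 0.17, Sesn1 -0.052 to 0.084 and Gulo -0.096 to 0.056 in HFD+eRapa against ND+veh. Of the refitted correlations 169 kept direction and side, 24 lost their call, 4 gained one and that of Igfbp6 in ND+veh turned to 0.25 on log2(FPKM + 1).

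The number of members called between HFD+eRapa and ND+veh, 3 of 5, depended most on the setting. It was 0 with no filter, where 4.56% of all genes were called, and 5 with only the groups compared, where 18.1% were. It was 1 with the marker covariate (24.4% of all genes) and 1 with limma on FPKM at either pseudocount (10.4 and 10.9%). With the covariate Igfbp1, Igfbp3 and Igfbp7 lost their calls there and Igfbp2 gained one (-1.65), while calls over all genes went from 1865 to 3378. Between HFD+eRapa and HFD+veh, 4 members were called and 2 with the covariate, which ended the calls of Igfbp3, Igfbp4 and Igfbp7 and gave one for Igfbp1 (2.32), while calls over all genes went from 4432 to 756. The call of Igfbp4 there was kept in 6 of 24 fits with 1 library left out. Partner genes called between HFD+eRapa and HFD+veh, 3 of 10, were 1 with at least 10 counts in every library, 1 with the covariate and 5 with limma at either pseudocount. Between HFD+eRapa and ND+veh, 3 became 1 with at least 10 counts and 5 with the covariate, and between HFD+veh and ND+veh 3 became 1 with limma at either pseudocount. With at least 10 counts, 26.1 and 14.0% of all genes were called in HFD+eRapa against HFD+veh and against ND+veh. With limma at the 2 pseudocounts, 24.5 and 23.8% were called in HFD+eRapa against HFD+veh. In HFD+veh against ND+veh limma called 19.5 and 16.9%. The filter to 10 counts drops Igfbp5 and Htra1 by construction. Under the covariate the calls of Htra1, Ctsd, Ghr, Jak2, Sesn1 and Cyp8b1 in HFD+eRapa against HFD+veh were lost (-0.85, -0.25, 0.32, -0.13, -0.41 and 0.23). The cause was otherwise not tested.

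With single libraries left out, members called ran from 2 to 3 (HFD+veh against ND+veh), from 3 to 4 (HFD+eRapa against HFD+veh) and from 0 to 4 (HFD+eRapa against ND+veh), and partner genes from 2 to 4, from 3 to 5 and from 3 to 4. Over all genes tested, 15.1 to 32.0%, 23.5 to 36.1% and 10.6 to 16.0% were called in these fits, in the same order of comparisons. The correlations called, 10, ran from 7 to 12. The last member count was 0 without ND+veh replicate 6 or 8 or HFD+eRapa replicate 5 or 6, and 1 without ND+veh replicate 4 or 7, HFD+veh replicate 5, or HFD+eRapa replicate 8 or 9. The partner count in HFD+eRapa against HFD+veh was 5 without HFD+veh replicate 1 or 2.

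Replicate numbers are shared between groups but belong to different animals. Same-numbered libraries did not deviate together throughout (mean r 0.32 over 7 pairs, -0.24 over 7 and -0.20 over 8). For HFD+veh against ND+veh r ran from -0.36 to 0.73. Within ND+veh the endothelial score broadly rose with replicate number, from -1.36 in replicate 1 to 1.06 in replicate 8. Whether this order bears on the correlations within groups was not tested. With the replicate block, members called were 2, 2 and 0 in the 3 comparisons and partner genes 3 in each. Of all genes, 17.8, 18.3 and 11.4% were called in that fit. At 0 to 12 counts, differences in Igfbp6 were not detectable at this depth.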
